A study of Arabidopsis thaliana with 15 samples.

Results

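The genes described here are 6 Arabidopsis thaliana genes for the breakdown of nitrogen compounds other than branched chain amino acids. They are AT4G33150 (lysine), AT5G38710 (proline), DELTA-OAT (AT5G46180, ornithine), MGL (AT1G64660, methionine), AAH (AT4G20070, allantoate) and URE (AT1G67550, urea). They were listed by route of breakdown and found by symbol or locus code among probe sets paired with exactly 1 gene, and they are 6 of the 16174 genes tested. Each of them had 1 probe set. Transcript levels were measured on 15 Affymetrix arrays of leaves of the accession Col-0, with 3 biological replicates in each of 5 groups. The first kind of darkened leaf was the individually darkened leaf (IDL), a fully expanded leaf under a foil-coated cover, with 2 such leaves on a plant whose other leaves stayed in the normal light and dark cycle. The other was the leaf of a darkened plant (DP), kept as a whole in a dark box in the same chamber. Both kinds were taken after 3 and 6 days, and light leaves were taken at day 0, before any darkening. All groups were Col-0 under short days (8 h of light) at 22 °C, with no mutant among them, and every replicate pooled 2 leaves of independent plants harvested in the middle of the light period.

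A leaf kept in darkness makes no new sugar by photosynthesis, and protein becomes a source of carbon and electrons for respiration. AT4G33150, annotated as LKR/SDH, is a single protein with lysine-ketoglutarate reductase and saccharopine dehydrogenase activity, which opens the saccharopine route of lysine breakdown. Proline dehydrogenase oxidises proline and hands the electrons to the mitochondrial respiratory chain, and ornithine aminotransferase (DELTA-OAT) leads the carbon of ornithine, a product of arginine breakdown, into glutamate. Methionine gamma-lyase (MGL) splits methionine into methanethiol, ammonium and 2-oxobutyrate, from which isoleucine can be made. Allantoate amidohydrolase (AAH) and urease (URE) release ammonium from allantoate, a product of purine breakdown, and from urea.

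Values are log2 of the deposited intensities, and differences are on the log2 scale with their standard error. Each adjusted p comes from a two-sided moderated test in limma with Benjamini-Hochberg adjustment over all 16174 genes of a comparison, and a gene passed at an adjusted p under 0.05. Arrays of 1 group correlated at 0.984 to 0.991 over all probe sets and arrays of different groups at 0.805 to 0.980, so no array stood outside its group. Precision is limited by the 3 arrays per group. Light was sampled at day 0 only, so darkness and 3 or 6 more days of leaf age cannot be told apart in any comparison with light. Those 4 comparisons also share the same 3 light arrays.

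The AT4G33150 transcript was much higher in every darkened group than in light. Its log2 intensities were 10.29, 10.62 and 10.20 in IDL at day 3 and 10.20, 10.53 and 10.48 in IDL at day 6. In DP they were 10.00, 10.35 and 10.01 at day 3 and 10.11, 10.12 and 10.37 at day 6, against 4.32, 4.33 and 4.38 in light. All 12 darkened arrays lay far above the 3 light arrays, while the arrays of the 4 darkened groups overlapped one another. The rise over light was 6.03 ± 0.13 (65.3-fold, adjusted p = 2.94e-18) in IDL at day 3 and 6.06 ± 0.13 (66.9-fold) in IDL at day 6. In DP it was 5.78 ± 0.13 at day 3 and 5.86 ± 0.13 at day 6. Ordered by the size of the rise among the 16174 genes, AT4G33150 held place 2 in IDL at day 3, place 1 in IDL at day 6, place 1 in DP at day 3 and place 3 in DP at day 6. Whether its light level (mean 4.34) lay above background was not tested. The same holds for the light means of AT5G38710 (4.60) and MGL (4.61). It holds as well for AT5G38710 in DP at day 6 (4.80) and for AAH in all groups (means 4.45 to 5.18).

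In the bulk leaf, fewer cells of a type and less RNA per cell cannot be told apart. Of 7 mesophyll markers, RCA and SBPASE were measured, with light means of 10.98 and 10.06. Their summed linear intensity was 2897 to 3390 in light. It was 544 to 614 in IDL at day 3 and 563 to 704 in IDL at day 6. In DP it was 590 to 600 at day 3 and 480 to 521 at day 6. RCA had means of 9.07 and 9.27 in IDL and 9.06 and 8.80 in DP at days 3 and 6. SBPASE fell further, to 4.82 and 4.55 in IDL and to 5.87 and 5.57 in DP, so the darkened sums are mostly RCA. SBPASE was lower in IDL than in DP at both days, and RCA was not. Of 6 guard cell markers, FMA and AT1G22690 were measured, and their sum lay between 64.9 and 96.4 in the darkened arrays, against 166 to 172 in light. The markers went opposite ways, so the lower sum is that of AT1G22690 alone. FMA had means of 5.68 and 5.77 in IDL and 5.59 and 5.54 in DP at days 3 and 6, against 5.38 in light. AT1G22690 had means of 4.55 and 3.84 in IDL and 5.50 and 4.96 in DP, against 7.01 in light. No measured marker had a group mean in the lower quartile of all genes. None of the 4 markers of phloem companion cells, 5 of epidermis and 5 of xylem was analysed here. The part of these shifts in the results was not tested.

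**Figure D1:**
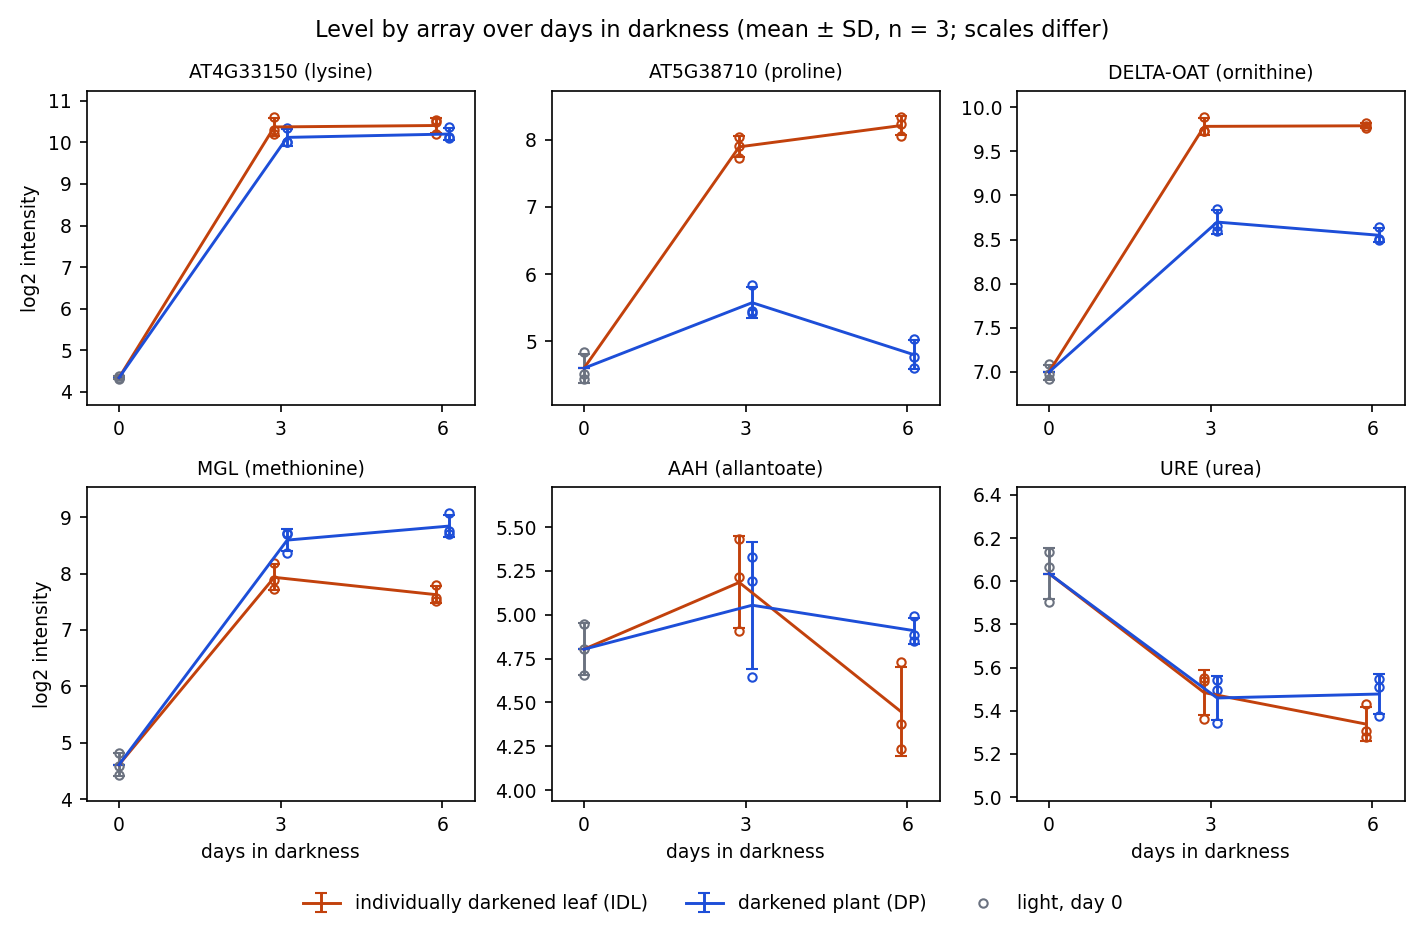
Log2 intensity of the 6 genes (vertical axis, a separate scale in each panel) against days in darkness (horizontal axis), with IDL in orange, DP in blue and light in grey. Circles are single arrays, and lines join group means with SD bars (n = 3). AT4G33150 lies at 10.0 or above in all darkened arrays, AT5G38710 separates IDL (7.73 to 8.34) from DP (4.61 to 5.84), MGL is the one with its DP line above its IDL line throughout, and URE has its highest values in light.

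AT5G38710, for proline breakdown, differed strongly between the kinds of darkened leaf. It stood at 7.90, 8.05 and 7.73 in IDL at day 3 and at 8.05, 8.24 and 8.34 in IDL at day 6. In DP it stood at 5.46, 5.84 and 5.43 at day 3 and at 4.77, 5.03 and 4.61 at day 6, against 4.44, 4.51 and 4.84 in light. Every IDL array thus lay above every DP array, and DP arrays at day 6 overlapped those of light. Against light it rose by 3.30 ± 0.15 (9.82-fold, adjusted p = 7.84e-14) in IDL at day 3 and by 3.61 ± 0.15 (12.2-fold) in IDL at day 6. In DP it rose by 0.98 ± 0.15 (adjusted p = 1.1e-05) at day 3 and stood 0.20 ± 0.15 above light at day 6 (adjusted p = 0.307, 95% confidence interval -0.10 to 0.50). With arrays centred on 7 reference genes this last difference was 0.38 and passed (adjusted p = 0.0361). That centring also moved the median difference of all genes to 0.23 in DP at day 6, so that relative to the median gene it changed little.

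DELTA-OAT, for ornithine breakdown, rose in both kinds of darkness and further in IDL. Its arrays read 9.73, 9.73 and 9.89 in IDL at day 3 and 9.76, 9.78 and 9.82 in IDL at day 6. They read 8.59, 8.85 and 8.65 in DP at day 3 and 8.64, 8.51 and 8.50 in DP at day 6, against 6.92, 6.98 and 7.09 in light. The IDL, DP and light arrays formed 3 bands without overlap, and within IDL and within DP the days overlapped. Against light the rise was 2.79 ± 0.11 in IDL at day 3 (6.91-fold, adjusted p = 9.77e-15) and 2.80 ± 0.11 at day 6. It was 1.70 ± 0.11 in DP at day 3 (3.25-fold, adjusted p = 2.39e-11) and 1.55 ± 0.11 at day 6.

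MGL, for methionine breakdown, also rose in all darkened groups, with its highest levels in DP. Its values were 7.88, 8.19 and 7.74 in IDL at day 3 and 7.57, 7.51 and 7.80 in IDL at day 6. In DP they were 8.36, 8.70 and 8.72 at day 3 and 8.75, 8.71 and 9.07 at day 6, against 4.82, 4.59 and 4.43 in light. All 6 DP arrays lay above all 6 IDL arrays, and these lay above all light arrays. Against light the rise was 3.32 ± 0.15 (9.99-fold, adjusted p = 7.88e-14) in IDL at day 3 and 3.01 ± 0.15 (8.08-fold) in IDL at day 6. In DP it was 3.98 ± 0.15 (15.8-fold, adjusted p = 6.25e-15) at day 3 and 4.23 ± 0.15 (18.8-fold) at day 6. Among all genes ordered by rise, MGL held places 46 and 95 in IDL and places 14 and 15 in DP at days 3 and 6.

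The ammonium-releasing enzymes of allantoate and urea did not share these rises. AAH read 4.91, 5.43 and 5.22 in IDL at day 3 and 4.24, 4.38 and 4.73 in IDL at day 6. It read 5.19, 5.33 and 4.64 in DP at day 3 and 4.85, 4.99 and 4.89 in DP at day 6, against 4.80, 4.66 and 4.95 in light. Each darkened group overlapped light, and no comparison of AAH with light passed. The differences were 0.38 ± 0.17 in IDL at day 3 (adjusted p = 0.0768, 95% confidence interval 0.03 to 0.73), -0.36 ± 0.17 in IDL at day 6 (adjusted p = 0.101), 0.25 ± 0.17 in DP at day 3 (adjusted p = 0.28) and 0.11 ± 0.17 in DP at day 6 (adjusted p = 0.668). Single arrays decided some of these. Without replicate 1 of IDL at day 3 the difference there was 0.52 (adjusted p = 0.0273), without replicate 3 of IDL at day 6 it was -0.50 (adjusted p = 0.0329), and without replicate 3 of DP at day 3 it was 0.46 (adjusted p = 0.0332).

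URE fell in all darkened groups by a similar amount. Its values were 5.54, 5.55 and 5.36 in IDL at day 3 and 5.30, 5.28 and 5.43 in IDL at day 6. They were 5.54, 5.50 and 5.34 in DP at day 3 and 5.51, 5.37 and 5.55 in DP at day 6, against 5.90, 6.14 and 6.07 in light. All darkened arrays lay below all light arrays, and the 4 darkened groups overlapped one another. URE fell by 0.55 ± 0.11 in IDL at day 3 (adjusted p = 0.000302) and by 0.70 ± 0.11 in IDL at day 6 (1.62-fold lower, adjusted p = 1.78e-05). It fell by 0.58 ± 0.11 in DP at day 3 and by 0.56 ± 0.11 in DP at day 6, and all 4 falls were smaller than 2-fold.

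**Figure D2:**
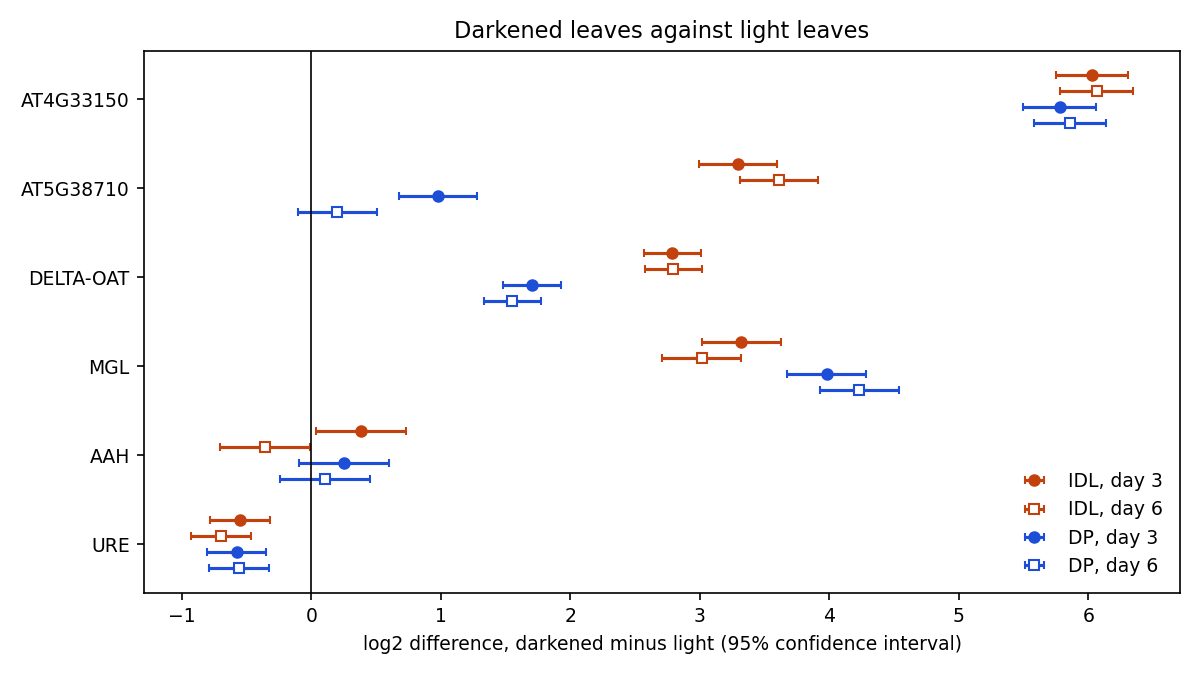
Log2 difference of each darkened group from light (horizontal axis) for the 6 genes (vertical axis), with IDL in orange and DP in blue, day 3 as filled circles and day 6 as open squares, and bars for the 95% confidence interval. The 4 intervals of AT4G33150 overlap around 6, those of AT5G38710 run from -0.10 to 0.50 in DP at day 6, which includes 0, up to 3.31 to 3.91 in IDL at day 6, and those of URE lie between -0.93 and -0.32.

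Counted over the 6 genes, 4 were higher and 1 lower than light in IDL at day 3, where 39.6% of all genes passed (20.8% higher, 18.8% lower). In IDL at day 6 4 were higher and 1 lower, where 39.7% of all genes passed (20.6% higher, 19.1% lower). In DP 4 were higher and 1 lower at day 3, where 35.2% of all genes passed (17.2% higher, 18.0% lower), and 3 were higher and 1 lower at day 6, where 39.9% passed (20.3% higher, 19.6% lower). The arrays did not overlap those of light for 5 of the 6 genes in IDL at day 3, IDL at day 6 and DP at day 3 and for 4 in DP at day 6, as for 48.6%, 48.8%, 44.3% and 46.8% of all genes. The median difference of the 6 genes was 3.04 in IDL at day 3 and 2.90 in IDL at day 6, 1.34 in DP at day 3 and 0.88 in DP at day 6. Over all genes that median lay between 0.03 and 0.06. AT4G33150, DELTA-OAT and MGL were higher in all 4 comparisons with light, as were 9.36% of all genes, and URE was lower in all 4, as were 12.5%. Changes of at least 2-fold that passed were seen in 4 of the 6 genes in IDL at both days and in 3 in DP at both days, against 12.5% and 14.0% of all genes in IDL at days 3 and 6 and 10.7% and 13.0% in DP.

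The comparison of IDL with DP at the same day sets a covered leaf on a lit plant against a leaf of a plant in a dark box. The extent of darkening and its means, cover or box, cannot be told apart in it. AT5G38710 was higher in IDL than in DP by 2.32 ± 0.15 at day 3 (4.99-fold, adjusted p = 1.99e-10) and by 3.41 ± 0.15 at day 6 (10.6-fold, adjusted p = 2.4e-13), and it held place 33 among all genes at both days. DELTA-OAT was higher by 1.09 ± 0.11 at day 3 (2.12-fold, adjusted p = 1.33e-07) and by 1.24 ± 0.11 at day 6 (2.37-fold). MGL went the other way, with IDL below DP at -0.66 ± 0.15 at day 3 (adjusted p = 0.00237) and -1.22 ± 0.15 at day 6 (adjusted p = 1.07e-06).

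AT4G33150 did not pass in either comparison of IDL with DP. Its difference was 0.25 ± 0.13 at day 3 (adjusted p = 0.251, 95% confidence interval -0.03 to 0.53) and 0.21 ± 0.13 at day 6 (adjusted p = 0.292, interval -0.07 to 0.48). URE stood at 0.02 ± 0.11 at day 3 (interval -0.20 to 0.25) and at -0.14 ± 0.11 at day 6 (interval -0.37 to 0.09). For both genes the intervals exclude a difference of 2-fold between IDL and DP in either direction.

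AAH stood at 0.13 ± 0.17 at day 3 (adjusted p = 0.718) and was lower in IDL at day 6 by 0.46 ± 0.17 (adjusted p = 0.0413). This call was lost without any 1 of 5 of the 6 arrays compared. The values were -0.36 and -0.43 without replicates 1 and 2 of IDL (adjusted p = 0.188 and 0.117), and -0.49, -0.42 and -0.47 without replicates 1, 2 and 3 of DP (adjusted p = 0.0628, 0.12 and 0.0789). It was also lost with arrays centred on the median (adjusted p = 0.0628) or on the reference genes (adjusted p = 0.0747). In all, 2 of the 6 genes were higher and 1 lower in IDL at day 3, where 16.7% of all genes passed (8.74% higher, 7.99% lower), and 2 were higher and 2 lower at day 6, where 29.1% passed (15.1% higher, 13.9% lower). Of these, 2 changed at least 2-fold at day 3 and 3 at day 6, as did 3.49% and 6.89% of all genes. The arrays of IDL and DP did not overlap for 3 of the 6 genes at day 3 and 4 at day 6, as for 30.1% and 40.8% of all genes.

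Between days 3 and 6 of darkness most of these genes stayed within their spread. In IDL at day 6 against day 3, AAH fell by 0.74 ± 0.17 (1.67-fold, adjusted p = 0.00632), and no other gene of the 6 passed, where 8.64% of all genes did (4.82% higher, 3.83% lower, and 1.48% by at least 2-fold). The IDL arrays of AAH at day 6 lay below all those at day 3. Without replicate 2 of IDL at day 3 the fall was 0.61 and no longer passed (adjusted p = 0.0502). AT5G38710 stood at 0.32 ± 0.15 in this comparison (adjusted p = 0.214), with all day 6 arrays above all day 3 arrays. The arrays of the days did not overlap for 2 of the 6 genes in IDL and for 26.7% of all genes. With centring on the reference genes it rose by 0.50 (adjusted p = 0.0231), and the median of all genes moved to 0.15.

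In DP at day 6 against day 3, AT5G38710 fell by 0.77 ± 0.15 (1.71-fold, adjusted p = 0.00267), with 4.61 to 5.03 at day 6 and 5.43 to 5.84 at day 3. It was the single call among the 6 genes, where 4.56% of all genes passed (2.03% higher, 2.53% lower, and 0.439% by at least 2-fold). The day 6 and day 3 arrays of DP did not overlap for 1 of the 6 genes and for 20.3% of all genes. The change of MGL was -0.31 ± 0.15 in IDL (adjusted p = 0.236) and 0.25 ± 0.15 in DP (adjusted p = 0.431). Those of AT4G33150 were 0.03 ± 0.13 in IDL and 0.08 ± 0.13 in DP. The 95% confidence intervals of AT4G33150 ran from -0.24 to 0.31 in IDL and from -0.20 to 0.36 in DP, which leave out a 2-fold change between the days.

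The interaction of treatment and day, which sets the change from day 3 to day 6 in IDL against that in DP, passed for AT5G38710 alone among the 6 genes, where 5.36% of all genes passed (3.13% higher, 2.23% lower, and 1.84% by at least 2-fold). Its change was 1.09 ± 0.21 higher in IDL than in DP (adjusted p = 0.0021). MGL stood at -0.56 ± 0.21 (adjusted p = 0.131) and AAH at -0.59 ± 0.24 (adjusted p = 0.159). DELTA-OAT stood at 0.16 ± 0.15, AT4G33150 at -0.05 ± 0.19 and URE at -0.16 ± 0.16.

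**Figure D3:**
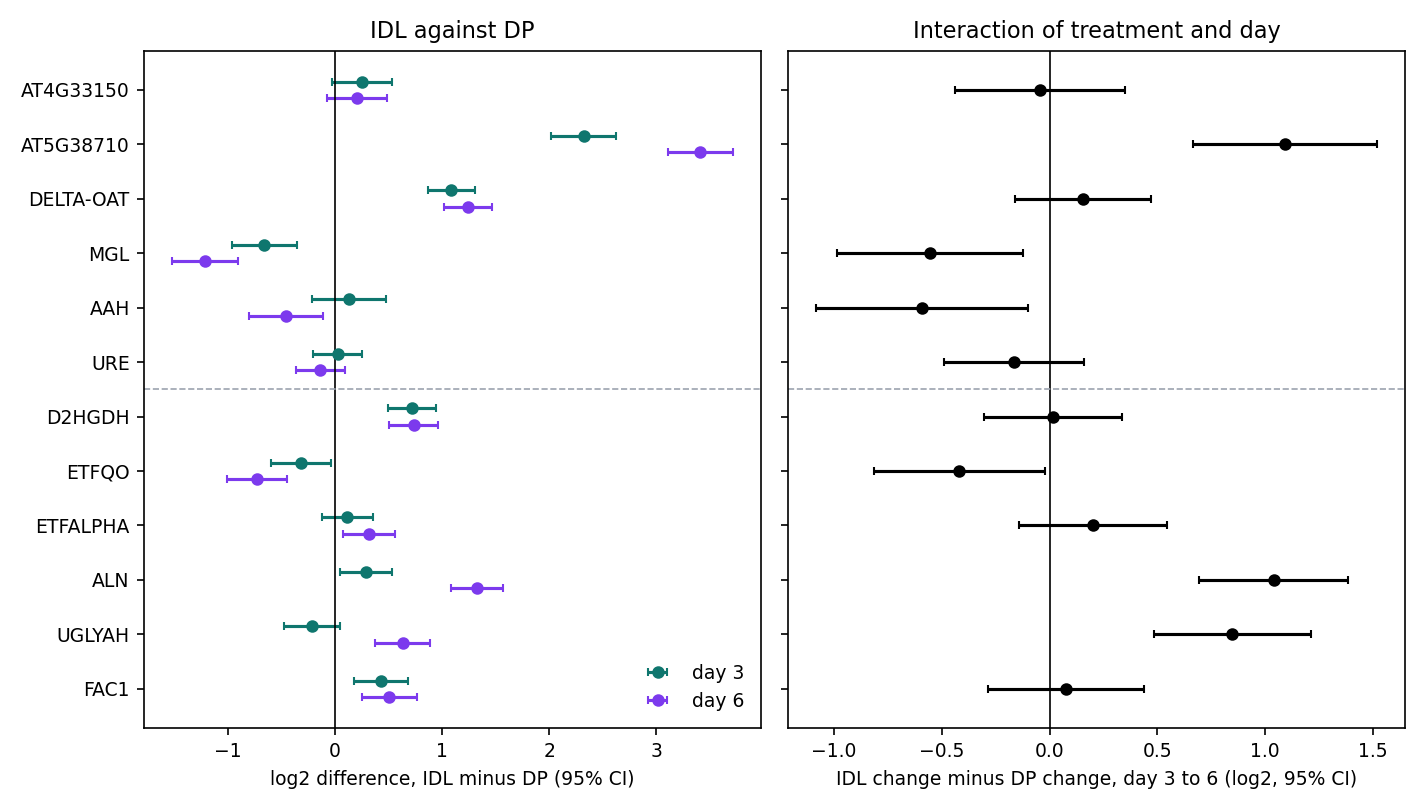
Left, log2 difference of IDL minus DP (horizontal axis) at day 3 in green and day 6 in purple. Right, the change from day 3 to day 6 in IDL minus that in DP on the log2 scale. Genes run down the vertical axis, the 6 genes above the dashed line and 6 further genes of the same routes below it, and bars are 95% confidence intervals. On the left side AT5G38710 lies farthest to the right (2.32 and 3.41) and MGL farthest to the left (-0.66 and -1.22). On the right side the intervals of AT5G38710, ALN and UGLYAH lie wholly above 0. Those of MGL, AAH and ETFQO lie wholly below 0, though these genes did not pass after adjustment.

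Ordered by group mean, the 6 genes gave different sequences. For AT4G33150 the order of the means was IDL at day 6 (10.40), IDL at day 3 (10.37), DP at day 6 (10.20), DP at day 3 (10.12) and light (4.34), and only light lay apart from its neighbour. For AT5G38710 it was IDL at day 6 (8.21), IDL at day 3 (7.89), DP at day 3 (5.57), DP at day 6 (4.80) and light (4.60), with neighbours that differ at the steps from IDL to DP and within DP. For MGL it was DP at day 6 (8.84), DP at day 3 (8.59), IDL at day 3 (7.93), IDL at day 6 (7.63) and light (4.61). Here the step between DP and IDL and that between IDL and light passed. DELTA-OAT had the order IDL at day 6 (9.79), IDL at day 3 (9.78), DP at day 3 (8.70), DP at day 6 (8.55) and light (6.92 to 7.09 over the arrays), and the days did not differ within a treatment. No neighbours in the order of AAH differed beyond their spread, from IDL at day 3 (5.18) over DP at day 3 (5.05), DP at day 6 (4.91) and light (4.80) to IDL at day 6 (4.45). In URE light (6.04) differed from its neighbour, and the darkened means lay between 5.34 and 5.48.

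A list of 73 genes of these and neighbouring routes was read beside them, of which 12 were measured with a probe set of a single gene. Besides the 6 genes these were D2HGDH, ETFQO and ETFALPHA of the lysine route and ALN, UGLYAH and FAC1 of purine and ureide breakdown. Of these further genes 3 were higher and 1 lower in IDL at both days against light, where 39.6% and 39.7% of all genes passed at days 3 and 6 (20.8% and 20.6% higher). In DP 2 were higher and 2 lower at day 3, where 35.2% of all genes passed (17.2% higher), and 2 were higher and 3 lower at day 6, where 39.9% passed (20.3% higher). The list covers these routes thinly, and its other genes were not analysed here. Among them was PRODH1, another gene for proline dehydrogenase, so AT5G38710 does not stand for proline breakdown as a whole. No gene of pyrimidine, tyrosine, threonine, ammonium or GABA handling on the list was paired with a probe set of a single gene by the annotation.

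D2HGDH, a dehydrogenase that oxidises D-2-hydroxyglutarate formed in lysine breakdown, also rose in all darkened groups. Its rise was smaller than that of AT4G33150 and, unlike it, differed between IDL and DP. It stood at 7.57, 7.43 and 7.42 in IDL at day 3 and at 7.33, 7.23 and 7.32 in IDL at day 6. DP arrays read 6.70, 6.87 and 6.69 at day 3 and 6.70, 6.53 and 6.45 at day 6, against 5.77, 5.76 and 5.94 in light. Every IDL array lay above every DP array and every DP array above light. The rise over light was 1.65 ± 0.11 in IDL at day 3 (adjusted p = 4.79e-11) and 0.93 ± 0.11 in DP at day 3 (adjusted p = 4.02e-07), and IDL exceeded DP by 0.72 ± 0.11 at day 3 and by 0.73 ± 0.11 at day 6.

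ETFQO, which passes electrons from the dehydrogenases of lysine and branched chain amino acid breakdown to ubiquinone, rose in all darkened groups and was lower in IDL than in DP at day 6, as MGL was. Its arrays read 9.57, 9.76 and 9.13 in IDL at day 3 and 9.24, 9.10 and 9.25 in IDL at day 6. They read 9.85, 9.78 and 9.77 in DP at day 3 and 9.97, 9.79 and 10.02 in DP at day 6, against 7.05, 6.79 and 6.91 in light. The arrays of DP lay above those of IDL at each day, and all of them lay far above light. IDL stood below DP at -0.73 ± 0.13 at day 6 (adjusted p = 0.00019) and at -0.32 ± 0.13 at day 3 (adjusted p = 0.131), a difference that was -0.45 without replicate 2 of IDL at day 3 and then passed (adjusted p = 0.029). Without replicate 3 of IDL at day 3, its change between days in IDL (-0.47, adjusted p = 0.0243) and its interaction (-0.60, adjusted p = 0.0432) passed as well. ETFALPHA, a subunit of the flavoprotein that hands electrons to ETFQO, did not pass in any comparison with light, with differences from -0.10 to 0.25. In IDL at day 3 it passed with quantile-normalized arrays (0.30, adjusted p = 0.0492) or when replicate 3 of light was left out (0.35, adjusted p = 0.0347). In IDL at day 6 it stood at 0.21 (adjusted p = 0.171), and with centring on the reference genes, which moved the median of all genes to 0.25, at 0.43 (adjusted p = 0.00446). It was higher in IDL than in DP at day 6 by 0.32 ± 0.12 (adjusted p = 0.0463). This did not pass when any 1 of the 6 arrays was left out, at 0.25 to 0.35 and adjusted p = 0.0629 to 0.19.

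On the ureide side, UGLYAH, the ureidoglycine aminohydrolase that acts after AAH, fell in all darkened groups. It stood at 6.04, 5.97 and 6.22 in IDL at day 3 and at 6.19, 6.10 and 6.11 in IDL at day 6. In DP it stood at 6.31, 6.17 and 6.40 at day 3 and at 5.21, 5.61 and 5.68 at day 6, against 8.11, 8.23 and 8.24 in light. All darkened arrays lay below light, and those of DP at day 6 lay below the rest. It fell by 2.12 ± 0.12 in IDL at day 3 (4.34-fold, adjusted p = 6.25e-12) and by 2.06 ± 0.12 in IDL at day 6. It fell by 1.90 ± 0.12 in DP at day 3 and fell by 2.69 ± 0.12 in DP at day 6 (6.46-fold, adjusted p = 1.28e-13).

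ALN, the allantoinase that makes allantoate for AAH, differed between the treatments at day 6. It stood at 6.69, 6.58 and 6.30 in IDL at day 3 and at 6.59, 6.64 and 6.69 in IDL at day 6. In DP it stood at 6.27, 6.19 and 6.24 at day 3 and at 5.36, 5.41 and 5.16 at day 6, against 6.25, 6.05 and 6.24 in light. DP arrays at day 6 lay below all others. Against light it rose by 0.46 ± 0.12 in IDL at day 6 (adjusted p = 0.00278) and fell by 0.87 ± 0.12 in DP at day 6 (adjusted p = 2.34e-06). Its rise of 0.34 ± 0.12 in IDL at day 3 (adjusted p = 0.0225) did not pass when replicate 2 of light was left out (0.28, adjusted p = 0.109), nor without replicates 1 (0.26, adjusted p = 0.121) and 2 (0.32, adjusted p = 0.072) of IDL. At day 6 IDL exceeded DP by 1.33 ± 0.12 (2.51-fold, adjusted p = 1.12e-08). At day 3 the difference was 0.29 ± 0.12 (adjusted p = 0.107), and 0.40 without replicate 3 of IDL (adjusted p = 0.0295).

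FAC1, an AMP deaminase at the entry to purine breakdown, fell in DP by 0.55 ± 0.12 at day 3 (adjusted p = 0.000984) and by 0.46 ± 0.12 at day 6 (adjusted p = 0.00414). The fall at day 6 was 0.29 with centring on the reference genes and did not pass (adjusted p = 0.0755). That centring also moved the median difference of all genes there from 0.05 to 0.23, so relative to the median gene FAC1 changed little. In IDL it stood at -0.13 ± 0.12 at day 3 and 0.04 ± 0.12 at day 6 against light. IDL exceeded DP by 0.50 ± 0.12 at day 6 (adjusted p = 0.00301) and by 0.43 ± 0.12 at day 3 (adjusted p = 0.0177). The call at day 3 was lost without replicate 1 of DP (0.41, adjusted p = 0.0612), replicate 3 of DP (0.41, adjusted p = 0.0557) or replicate 3 of IDL (0.29, adjusted p = 0.132).

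**Figure D4:**
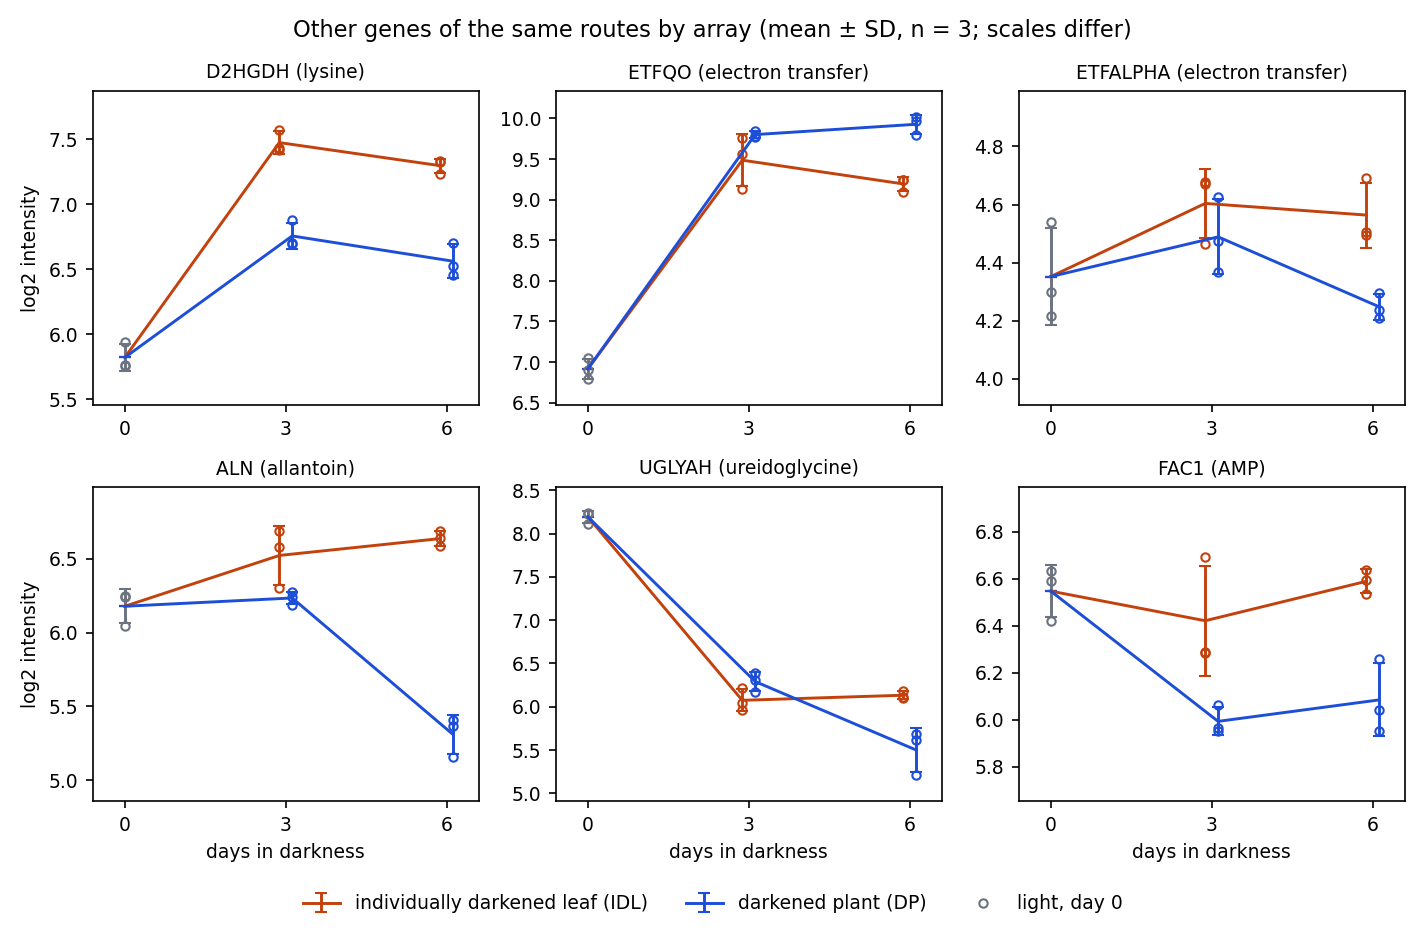
Log2 intensity of 6 further genes of the same routes (vertical axis, a separate scale in each panel) against days in darkness (horizontal axis), with IDL in orange, DP in blue and light in grey. Circles are single arrays, and lines join group means with SD bars (n = 3). ALN and UGLYAH have their lowest values in DP at day 6 (5.16 to 5.41 and 5.21 to 5.68), and the DP line of ETFQO lies above its IDL line.

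Likeness of pattern was described by Pearson's r of the log2 level over the 15 arrays, which fall into 5 groups, so that r mostly reflects the group means. Among the other 16173 genes, AT4G33150 was most like AT2G05540 (0.997), AT5G55970 (0.995) and AT5G57655 (0.995). AT5G38710 was most like PUB43 (0.985), AT1G34060 (0.984) and AT5G59840 (0.983), and DELTA-OAT was most like AT2G18090 (0.990), AT1G75400 (0.990) and AT1G49000 (0.990). The genes most like MGL were AT2G20670 (0.994), ETFQO (0.992) and OBE1 (0.991). AAH had weaker likeness to its nearest genes, AT2G19280 (0.867), GH9A4 (0.863) and AT1G64590 (0.858), and those of URE were AT3G07670 (0.972), AT1G65190 (0.967) and AT5G46390 (0.965). Among the 6 genes themselves, AT4G33150 and MGL had an r of 0.942, AT5G38710 and DELTA-OAT of 0.879, AT5G38710 and MGL of 0.258, and AT4G33150 and URE of -0.919. The r of AAH with the other genes lay between -0.115 and 0.223.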

How the data were processed

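Each array's file, as deposited, holds linear intensity values per probe set, made with oligo per the submitters' processing notes. Neither the version nor how the values were normalized and summarised is given in the sources used here. The deposited intensity values ranged from 5.19 to 6633, and array medians from 18.3 to 19.6. The deposited values were converted to log2 here. Of 26676 probe sets, 16179 were paired with 1 gene by the platform annotation, 588 with several and 9909 with none. The brightest probe set stood for a gene with several, which gave 16174 genes. Symbols follow RefSeq's TAIR10.1 gene table.

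All 15 arrays were fitted with limma 3.58.1 (lmFit and eBayes, R 4.3.3), a mean per group and 9 comparisons. The fit was tried on simulated data with independent noise, for all comparisons but the interaction. Far fewer genes were changed in those data than passed against light here, and no result rests on them. The 6 genes, the lists and the tests were chosen with earlier results of these data known. Named genes were the 6 genes, the measured genes of the 73 listed, and the 3 genes most like each. Alternatives were all probe sets, no dim genes (lowest quartile of mean level), quantile normalization, centring on the median or on 7 reference genes, a trended robust prior, only the arrays compared, the replicate block, each array left out, an adjusted p under 0.01 and a 2-fold minimum.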

Additional observations from a re-analysis of the deposited data

Results flagged for a closer look

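The change from day 3 to day 6 differed between the treatments, by the interaction term of limma's fit, for AT5G38710 and for 2 further genes of the ureide route. AT5G38710 changed by 0.32 in IDL and by -0.77 in DP, a difference of 1.09 (adjusted p = 0.0021). ALN changed by 0.11 in IDL and by -0.93 in DP, a difference of 1.04 (adjusted p = 0.000386). UGLYAH changed by 0.06 in IDL and by -0.79 in DP, a difference of 0.85 (adjusted p = 0.00452). In each of these genes all 3 DP arrays at day 6 lay below all 3 at day 3. The interaction by which they were flagged contains this DP change, so the gap is not separate evidence. Over all genes, the DP arrays of the days did not overlap, in either direction, for 20.3%. The interaction passed for 5.36% of all genes (3.13% higher).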

How the results depend on the processing

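The number of the 6 genes that passed was within 1.5 times the count given for every alternative run, except in these cases. With a 2-fold minimum 3 passed for DP on day 3 compared with light, and 0 in either comparison of day 6 with day 3 (limma, where 1 had passed in each). With centring on the reference genes 2 passed in IDL at day 6 against day 3. With each array left out in turn, the counts were 5 to 6 in IDL at day 3, IDL at day 6 and DP at day 3 against light, 4 to 4 in DP at day 6, 3 to 3 and 3 to 4 in IDL against DP at days 3 and 6, 0 to 1 in IDL and 1 to 1 in DP between days, and 1 to 1 for the interaction. Of 900 repeats of single differences of the 6 genes, 851 kept direction and side of the threshold, 18 lost and 5 gained a call, and 26 changed sign. For the 6 further genes these were 842, 38, 7 and 13. Another threshold, set of genes or prior, the compared arrays alone and the replicate block leave a difference of group means unchanged. In those repeats only the call could change, so they say nothing on the stability of direction. No sign change concerned a difference that passed. Signs changed after quantile normalization for AT4G33150 in IDL against DP at day 6 (-0.0356), DELTA-OAT in IDL between days (-0.0600), D2HGDH in the interaction (-0.0355) and FAC1 in IDL at day 3 (4.83e-06). With centring on the median they changed for URE in DP between days (-0.00514), AT4G33150 in the interaction (0.0220) and ETFALPHA in IDL between days (0.00439). With centring on the reference genes they changed for DELTA-OAT (0.0321) and AAH (0.0367) in DP between days, for URE (0.0404), D2HGDH (0.00832) and ETFALPHA (0.15) in IDL between days and for ETFALPHA in DP at day 6 against light (0.0705). With an array left out the range included 0 in IDL against DP at day 3 for AAH (-0.0760 to 0.27) and URE (-0.0339 to 0.0856), in DP between days for AT4G33150 (-0.00279 to 0.20) and URE (-0.0404 to 0.0704), in IDL between days for AT4G33150 (-0.0479 to 0.16) and DELTA-OAT (-0.0205 to 0.0603), in the interaction for AT4G33150 (-0.16 to 0.0770) and D2HGDH (-0.0428 to 0.0881), and against light for ALN in DP at day 3 (-0.0102 to 0.0905) and FAC1 in IDL at day 6 (-0.0218 to 0.0840).

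The replicate numbers are not said to mark shared plants. The deviations of same-numbered arrays from their group means correlated at -0.08 to 0.09 in 30 pairs, none over 0.1. Those of differently numbered arrays of different groups correlated at -0.10 to 0.09. By mean correlation 9 of 15 arrays were closest to their own number among 3, and whether this exceeds chance was not tested. With the replicate block the counts for the 6 genes were 5, 4, 5 and 5 against light (DP and IDL by day), 3 and 4 in IDL against DP, 1 and 1 between days and 1 for the interaction, as without it, and counts over all genes changed by a factor of 0.985 to 1.01. The call of ETFALPHA in IDL against DP at day 6 was lost with the block (adjusted p = 0.0594). Centring on the reference genes moved the share of higher genes among all that passed to 73.0% in IDL and 70.4% in DP at day 6 against light (51.9% and 50.8% otherwise) and to 91.0% in IDL and 90.1% in DP between days (55.7% and 44.4%). Centring on the median moved it to 66.9% in IDL between days and 71.9% for the interaction (58.5% otherwise). The cause was not tested.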
